A study of Mus musculus with 3 samples.

Results

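The 10 genes described here belong to MHC class II antigen presentation. They were taken from a list of names (*H2-Aa*, *H2-Ab1*, *H2-Eb1*, *H2-Eb2*, *Cd74*, *H2-DMa*, *H2-DMb1*, *H2-DMb2*, *H2-Oa* and *Ciita*), each name matched 1 gene, and they make up 10 of the 32285 genes counted. Their unique molecular identifiers (UMIs), which count captured RNA molecules, were read from 3 droplet single-cell RNA libraries. One library came from WT mice, 1 from *sGsn-/-* mice, which lack secreted gelsolin, and 1 from *sGsn-/- Clec9a-/-* mice, which also lack the dead-cell receptor DNGR-1. WT mice were C57BL/6J, the mutants were backcrossed to it, and mice were co-housed and 6 to 20 weeks old, an age range stated for all experiments together. All carried ovalbumin-expressing MCA205 LA-OVA fibrosarcomas on both flanks, harvested on day 5, and no treatment is given. Tumours of 37 WT, 31 *sGsn-/-* and 27 *sGsn-/- Clec9a-/-* mice were pooled, so each genotype is 1 library with no replicate, and the mice cannot be separated. The sorted cells were a mixture of pre-cDCs, XCR1+ cDC1s and Sirpa+ cDC2s. Every one of them was gated on surface MHC class II protein and CD11c and against CD88 and lineage antigens.

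MHC class II molecules are pairs of an α and a β chain that carry peptides from engulfed proteins to the cell surface, where CD4+ T cells read them. The invariant chain, encoded by *Cd74*, fills the groove of a new pair until it reaches an endosome, where the H2-DM dimer exchanges the last fragment for peptide and the H2-O dimer restrains H2-DM. Transcription of these genes depends on *Ciita*, the class II transactivator, which joins RFX, NF-Y and CREB proteins on their promoters, and maturing dendritic cells are known to shut *Ciita* down while class II protein stays at the surface.

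The libraries held 12763 WT, 8173 *sGsn-/-* and 9273 *sGsn-/- Clec9a-/-* barcodes with 176578136, 109270958 and 113411930 UMIs. A deposited table names 5806 of the 30209 barcodes as cDC1s and places each in 1 of 12 clusters, with 2316, 1712 and 1778 cDC1s in the same order of genotypes, which every set of 3 values below follows. Their 6 cDC1 marker genes summed to 2360.4, 2319.7 and 2221 CPM (UMIs of a gene scaled to 1000000 UMIs of the group), *Irf8* the most abundant. The 6 cDC2 genes summed to 60.9, 59.2 and 58.8 CPM. As a check of the labels, *Clec9a*, which encodes DNGR-1, was at 168, 168 and 0.0931 CPM in the cDC1s, the last value from 2 UMIs. *Gsn* was at 152, 169 and 167 CPM, and counts per gene cannot tell the deleted secreted form from the cytoplasmic one. Among cDC1s with UMIs of Y-linked genes or of *Xist* but not both, 19.3% (exact Clopper-Pearson 95% interval 17.6 to 21.1), 36.3% (33.8 to 38.8) and 23.6% (21.4 to 25.8) had the Y-linked kind, whereas males made up 67.6%, 48.4% and 37.0% of the pooled mice. The order differed too, as WT had the largest share of males and the smallest of Y-linked cells, and *sGsn-/-* had the most Y-linked cells. The first shares are of cells in which these genes were detected and the second of mice, so the 2 need not be equal. Whether pool compositions, library labels or anything else accounts for the difference was not tested. As *Gsn* counts do not separate WT from *sGsn-/-*, values that set these 2 genotypes against each other rest on the labels. Pairs of libraries shared 26 to 28 barcode sequences, 2 or 3 of them in the table. No doublet caller was run, and results were recomputed without the 5% of barcodes richest in UMIs.

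CPM values are not divided by transcript length, so levels are compared between groups of cells for each gene and not between genes. In all cDC1s of the table the 10 genes took 4.94%, 4.90% and 4.99% of UMIs, and the share was alike in the 3 libraries. *H2-Aa*, the α chain, and *H2-Ab1*, the β chain of the A molecule, were at 8397 ± 117 and 10397 ± 202 CPM (mean ± SD, n = 3 libraries). *H2-Eb1*, the β chain of the E molecule, was at 8528 ± 204 CPM. Mice of the H2 b haplotype, C57BL/6J among them, make no E α chain, and *H2-Ea* was not found among the counted genes. *Cd74* was at 19998 ± 282 CPM, and *H2-Eb2*, a second E β-like chain whose role is little known, at 8.59 ± 1.82 CPM. The H2-DM chains gave 849.9 ± 31.4 CPM for *H2-DMa*, 939 ± 29.3 CPM for *H2-DMb1* and 58.3 ± 3.17 CPM for *H2-DMb2*. *H2-Oa*, a chain of H2-O, was at 78.1 ± 4.53 CPM and *Ciita* at 172 ± 5.96 CPM.

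Some of these genes sit close to copies or neighbours that could share counts. *H2-DMb1* and *H2-DMb2* transcripts were 94.6% identical over 1219 aligned bases and *H2-Eb1* and *H2-Eb2* transcripts 78.4% over 1605. In the last 500 bases the first pair was 89.2% identical over 334 aligned bases and the second 60.4% over 442. The division of UMIs within each pair, *H2-DMb1* and *H2-DMb2* above all, is therefore uncertain. In the annotation *H2-Eb1* overlaps antisense *Gm20513*, *H2-Oa* antisense *BC051537*, *Ciita* antisense *Dexi*, *H2-DMa* several genes including antisense *Brd2*, and *Cd74* *Mir5107*, and the labels do not say whether counting used the strand. Of the 10 genes, 8 lie on chromosome 17 between *H2-Oa* (ENSMUSG00000024334), which starts at 34092340, and *H2-Eb2* (ENSMUSG00000067341), which ends at 34341412. *Cd74* (ENSMUSG00000024610) is on chromosome 18 and *Ciita* (ENSMUSG00000022504) on chromosome 16, all in build GRCm38.

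Across clusters 0 to 10 the class II genes did not share one order. Cluster 11 was left out of the order because its 60 cells had a median of 2348 UMIs. The abundant genes were highest in clusters 2 and 0. *H2-Ab1* was at 11402 ± 89.0 CPM in cluster 2 and 11379 ± 94.3 CPM in cluster 0, which did not differ beyond their SDs, and lowest in cluster 8 at 7021 ± 1489 CPM, not separated from cluster 4 (8314 ± 513) given its own wide SD. *Cd74* was at 21866 ± 348 and 21594 ± 580.2 CPM in clusters 2 and 0, and at the low end neighbours among clusters 10, 8, 4 and 6 did not differ beyond their SDs. For *H2-Aa* cluster 0 led with 9505 ± 61.5 CPM, apart from cluster 2, while for *H2-Eb1* cluster 2 (9803 ± 152 CPM) was not separated from cluster 0 (9590.4 ± 64.2). At the low end *H2-Aa* was at 6645 ± 264 CPM in cluster 5 and *H2-Eb1* at 5891 ± 486 CPM in cluster 4, neither separated from the next, clusters 4 and 6.

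The peptide-loading genes and *Ciita* had cluster 8 at the bottom. *H2-DMa* ran from 987 ± 38.8 CPM in cluster 2 to 699.8 ± 22.9 in cluster 6 and 306 ± 65.2 in cluster 8, and only the last step, among neighbours in the order, exceeded the SDs. *H2-DMb1* fell in the same way at the end of its order, from 731 ± 43.6 CPM in cluster 6 to 312 ± 94.4 CPM in cluster 8. *Ciita* was highest in clusters 6 (272 ± 20.4 CPM), 10 (221 ± 50.5), 3 (219 ± 10.5) and 2 (216 ± 9.20). Cluster 6 was above clusters 3 and 2 beyond the SDs, and cluster 10, with the widest SD, was not separated from any of the 3. It was next in cluster 9 (186 ± 11.96) and lowest in cluster 8 (57.1 ± 12.97), each apart from its neighbours. *H2-DMb2* stood apart in cluster 10 (98.9 ± 13.6 CPM), followed by clusters from 6 (64.5 ± 3.27) to 3 (50.2 ± 4.90), among which no neighbours were separated, and last by cluster 8 (38.4 ± 5.31), which was. *H2-Eb2* ran the other way, with 109 ± 14.4 CPM in cluster 8, 12.3 ± 0.441 CPM in cluster 6, both apart from the next, and 2.26 ± 0.502 CPM in cluster 0, the lowest. *H2-Oa* ranged from 99.7 ± 10.9 CPM in cluster 2 to 41.6 ± 9.84 in cluster 8 with no neighbours separated.

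**Figure D1:**
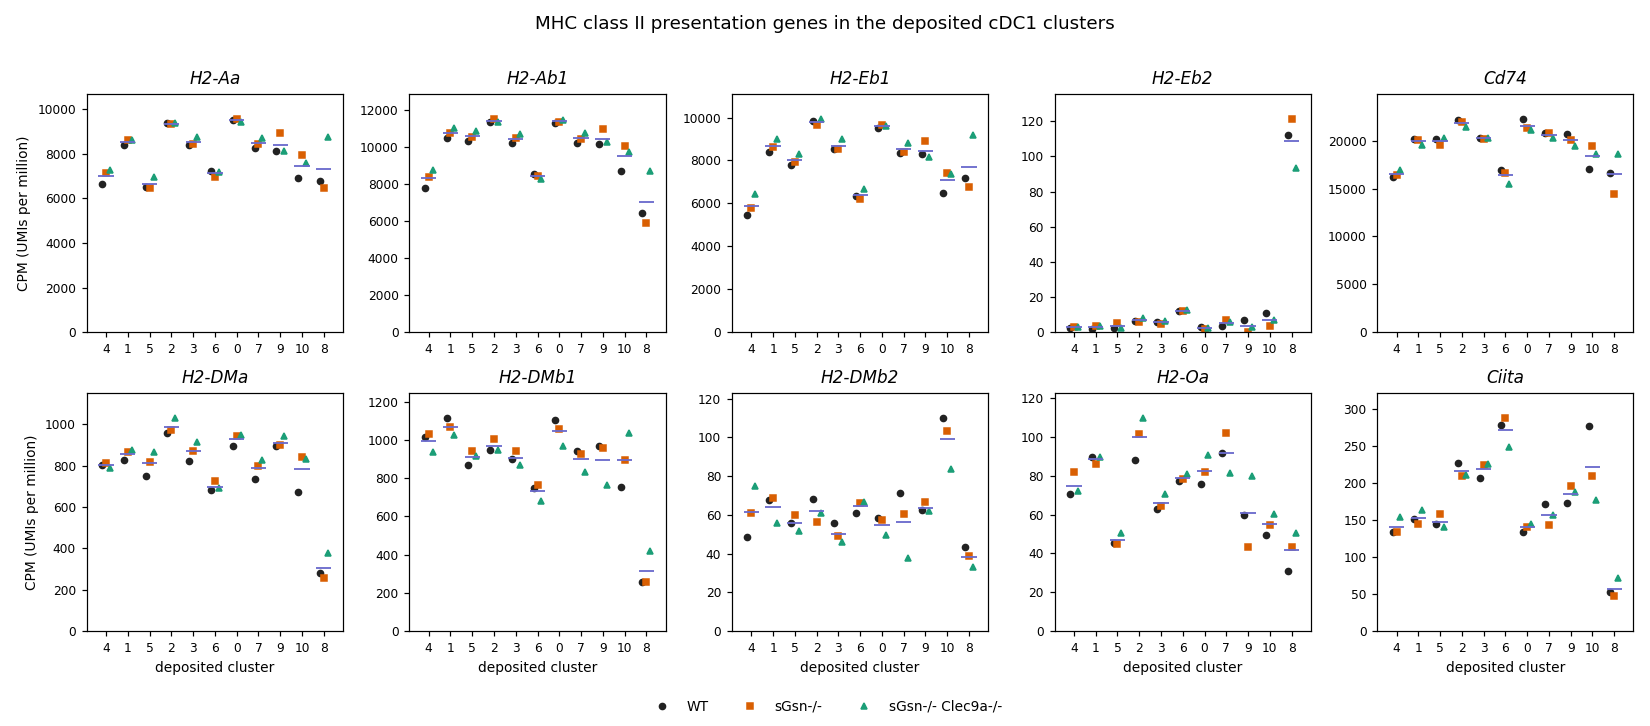
CPM of the 10 genes (vertical axes, from 0) in deposited cDC1 clusters 4, 1, 5, 2, 3, 6, 0, 7, 9, 10 and 8 (horizontal axis), with a point for each of the 3 libraries and a line for their mean. *H2-Eb2* is at 109 CPM in cluster 8 and at most 12.3 CPM elsewhere, while *H2-DMa*, *H2-DMb1* and *Ciita* are lowest in cluster 8.

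Cluster 8 holds 84 WT, 114 *sGsn-/-* and 57 *sGsn-/- Clec9a-/-* cells rich in *Ccr7*, *Fscn1* and *Il12b*, which mark activated, migratory cDCs, and it was set against all remaining cDC1s of the table. UMIs were summed by library and group, and edgeR tested the sums (quasi-likelihood test, p adjusted by Benjamini-Hochberg over all genes tested), a gene being called at an adjusted p under 0.05. *H2-Eb2* was at 112, 121 and 93.1 CPM in these cells, against 4.49, 4.35 and 5.11 CPM elsewhere. All 3 libraries were higher in cluster 8 and the groups did not overlap (log2 fold change 4.75, SE 0.14, edgeR adjusted p = 3.28e-12). *H2-DMa* was at 280.0, 258 and 380.4 CPM against 840.0, 877 and 896 CPM (log2 fold change -1.37, SE 0.14, edgeR adjusted p = 1.44e-06), lower in 3 of 3 libraries. *H2-DMb1* was at 258, 257 and 421 against 980.2, 995 and 917 CPM (log2 fold change -1.49, SE 0.16, edgeR adjusted p = 2.83e-06). So both chains of H2-DM fell by more than the spread between libraries, with no overlap. *Ciita* was at 52.3, 47.2 and 71.8 against 178, 172 and 179 CPM (log2 fold change -1.53, SE 0.14, edgeR adjusted p = 4.97e-07), and again every library was lower in cluster 8 without overlap.

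*H2-Oa* fell as well, from 75.1, 79.7 and 83.6 CPM elsewhere to 31.0, 43.3 and 50.5 CPM in cluster 8 (log2 fold change -0.82, SE 0.16, edgeR adjusted p = 0.000886, 3 of 3 libraries). Weaker calls were those of *H2-Ab1*, at 6448, 5903 and 8711 against 10355, 10589 and 10669 CPM (log2 fold change -0.42, SE 0.14, edgeR adjusted p = 0.0257, 3 of 3 libraries), and of *H2-DMb2*, at 43.6, 38.6 and 33.0 against 61.5, 60.5 and 55.3 CPM (log2 fold change -0.43, SE 0.13, edgeR adjusted p = 0.0172, 3 of 3 libraries). The call of *H2-Ab1* was lost without the WT library (edgeR adjusted p = 0.12, log2 fold change -0.39) and without the *sGsn-/-* library (0.199, -0.35), in a range of 5.90e-06 to 0.199 over its 10 alternatives. That of *H2-DMb2* was lost without the same libraries (edgeR adjusted p = 0.0609 and 0.123, log2 fold changes -0.50 and -0.44, range 0.00352 to 0.123). Its log2 fold change ran from -0.41 with DESeq2 to -0.998 in thinned cells. The other class II chain genes and the invariant chain were not called. *H2-Aa* had a log2 fold change of -0.03, *H2-Eb1* of 0.02 and *Cd74* of -0.12, where *Cd74* was lower in 3 of 3 libraries by CPM and *H2-Eb1* turned to -0.15 without TMM scaling. In cluster 8, then, transcripts of the A α chain, the E β chain and the invariant chain were not called as different while those of H2-DM and *Ciita* fell. The A β chain, *H2-Ab1*, was called lower with the limits above. Without TMM scaling, *H2-Aa*, *H2-Ab1*, *H2-Eb1* and *Cd74* together took 3.70%, 3.36% and 4.52% of UMIs in cluster 8, against 4.76%, 4.77% and 4.78% elsewhere. For all 10 genes these shares were 3.78%, 3.44% and 4.63% against 4.98%, 4.99% and 4.99%, so both were lower in each library.

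In all, 1 of the 10 genes was higher and 6 were lower in cluster 8, where 21.3% and 20.4% of 10964 genes tested were called higher and lower. Their median log2 fold change was -0.42, against -0.09 for all genes tested. Without TMM scaling the median of all genes moved from -0.09 to -0.25 and the calls from 2331 higher and 2238 lower to 1898 and 3036, so the fold changes are relative to that shift, and *Cd74* was then called lower (log2 fold change -0.28, edgeR adjusted p = 0.0235, range 0.0235 to 0.803). Without the *sGsn-/-* library 2989 genes were called in place of 4569. The clusters were drawn on these same counts, so the p-values say only how alike the 3 libraries are.

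Among 16 other genes of the pathway, 14 were tested in cluster 8, and 5 were higher and 3 lower, with a median of 0.02. *Lgmn*, a lysosomal protease of the antigen-processing route, was at 274, 277 and 139.7 CPM against 20.8, 28.2 and 23.1 CPM (log2 fold change 3.49, SE 0.18, edgeR adjusted p = 6.98e-10, 3 of 3 libraries). *March1*, the ubiquitin ligase that sends class II protein to degradation, was at 26.2, 19.7 and 21.3 CPM against 162, 163 and 144 CPM (log2 fold change -2.64, SE 0.15, edgeR adjusted p = 1.62e-09, 3 of 3 libraries). *Cd83*, which opposes March1, had a log2 fold change of 1.14, and *Ifi30*, a lysosomal thiol reductase, one of 1.02, and the groups did not overlap for either. *Creb1* and *Nfya*, which encode promoter-binding partners of *Ciita*, rose by 1.07 and 0.87 on the log2 scale. *Rfxap*, another partner, at a log2 fold change of -0.56, and *H2-Ob*, the other chain of H2-O, at -0.66, were called lower.

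Markers of other cells were read beside this pattern. In cluster 8 all 8 monocyte or macrophage genes had UMIs and summed to 607, 60.6 and 73.7 CPM, *Apoe* the most abundant, against 72.8, 52.7 and 68.7 CPM elsewhere. The excess was in the WT library. The 3 activated cDC genes summed to 5924, 5384 and 2684 CPM with *Ccr7* the most abundant, lowest in the *sGsn-/- Clec9a-/-* library. The 6 cDC1 genes, all with UMIs and *Irf8* the most abundant, fell to 1309, 1290.1 and 1314 CPM, against 2395, 2378 and 2244 CPM in the other cDC1s. The 5 NK genes summed to 99.8, 201 and 54.3 against 70.4, 115 and 82.0 CPM, the 4 T cell genes to 2.91, 11.8 and 1.94 against 2.02, 2.96 and 1.81 CPM and the 6 cDC2 genes to 97.9, 27.6 and 67.9 against 59.7, 61.1 and 58.6 CPM. The part of any of these in the class II values was not tested.

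Per cell, the change in cluster 8 was uneven. Cells were thinned to 3930 UMIs each, a depth that 198 of the 255 cells of cluster 8 reached. *H2-Eb2* UMIs were then found in 54 of 198 cells, 27.3% (21.2 to 34.0), exact Clopper-Pearson 95% interval, and in 40.8% before thinning. Other clusters among 0 to 10 had between 0.633% and 4.14% of cells with a UMI. Barcodes outside the table with *Ncr1*, an NK cell gene, and with no UMI of *Cd209a* or *C1qa* are named *Ncr1* barcodes here. Whether they lack class II transcription was not tested. Among them *H2-Eb2* was found in 0.245% (0.09 to 0.533) (0.671% before thinning) at a median depth of 8173 UMIs, against 10867 in cluster 8. *H2-DMa* was found in 46.0% (38.9 to 53.2) of thinned cells of cluster 8 and in 90.6% to 98.7% of the other clusters, with 21.0% (19.4 to 22.7) in *Ncr1* barcodes. *H2-DMb1* was found in 36.4% (29.7 to 43.5) of them, against 92.9% to 97.5% elsewhere and 16.3% (14.9 to 17.9) in *Ncr1* barcodes. *Ciita* was found in 13.1% (8.76 to 18.6) of cells of cluster 8, in 36.9% to 61.4% elsewhere and in 4.82% (4.01 to 5.75) of *Ncr1* barcodes. Before thinning these shares were 55.7%, 42.4% and 22.7% in cluster 8 and 31.9%, 24.7% and 10.6% in *Ncr1* barcodes. *Cd74* was found in every thinned cell of cluster 8, but its spread was wide, with a 10th percentile of 9, a median of 57.5 and a 90th percentile of 109 UMIs, against 62.0, 84.0 and 111 in cluster 0. Intervals cover counting error only.

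Cluster 10, which the study names with cluster 8 as a possible activated end state, held 21 WT, 27 *sGsn-/-* and 28 *sGsn-/- Clec9a-/-* cells. *H2-DMb2* was at 109.8, 103 and 83.7 CPM there, against 60.5, 58.7 and 54.4 CPM in the remaining cDC1s. Each library was higher in cluster 10 and the groups did not overlap (log2 fold change 0.70, SE 0.15, edgeR adjusted p = 0.00837). The call was lost without the WT library (edgeR adjusted p = 0.0936), without the *sGsn-/-* library (0.116), without the *sGsn-/- Clec9a-/-* library (0.0613) and in thinned cells (0.335), with log2 fold changes of 0.68, 0.65, 0.75 and 0.56 and a range of 0.000198 to 0.335 over 10 alternatives. It was the 1 call among the 10 genes, higher, where 3.74% of 10635 genes were called higher and 3.76% lower. *H2-Eb1*, at a log2 fold change of -0.33 and not called (edgeR adjusted p = 0.162), was called lower without a filter (0.0197). Uncalled log2 fold changes ran from -0.58 for *H2-Oa* to 0.29 for *Ciita*, and the median over the 10 genes was -0.19, against -0.12 for all genes tested. Without TMM scaling the calls were 433 higher and 276 lower in place of 398 and 400, and with DESeq2 801 and 322. Leaving out 1 library gave 357 calls without WT, 318 without *sGsn-/-* and 334 without *sGsn-/- Clec9a-/-*, in place of 798. Of 14 tested genes of the pathway 2 were higher by log2 fold change, *Creb1* (0.87) and *Ifi30* (0.69), and 2 lower, *H2-Ob* (-0.92) and *March1* (-0.68).

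The cDC2 genes moved with this cluster. All 6 had UMIs and summed to 138, 509 and 107 CPM, against 60.2, 53.2 and 58.1 CPM in the other cDC1s, with *Cd209a* the most abundant. Their part in the level of *H2-DMb2* was not tested. The 5 NK genes summed to 63.8, 109.6 and 167 CPM, and the 3 activated cDC genes, *Fscn1* at 0, summed to 10.6, 22.6 and 157 CPM, *Il12b* the most abundant. Of the UMIs of *H2-DMb1* and *H2-DMb2* together, *H2-DMb2* made up 12.8%, 10.4% and 7.46% in cluster 10. The same share was 14.5%, 13.03% and 7.26% in cluster 8 and 5.98%, 5.85% and 5.71% over all cDC1s.

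Set against each other, clusters 8 and 10 differed in 5 of the 10 genes, 1 higher and 4 lower in cluster 8, where 18.8% of 4229 genes were called higher and 16.2% lower. *H2-Eb2*, the 1 higher gene, was at 112, 121 and 93.1 CPM in cluster 8, from 116, 154 and 48 UMIs. In cluster 10 it was at 10.6, 3.22 and 6.69 CPM, from 3, 1 and 2 UMIs (log2 fold change 4.15, SE 0.37, edgeR adjusted p = 2.59e-06, 3 of 3 libraries). With so few UMIs in cluster 10 it passed the filter through cluster 8, so its p-value is no test and its fold change is imprecise. Over its 9 alternatives the log2 fold change of *H2-Eb2* ran from 3.41 in thinned cells to 4.56 without the WT library. All of them rest on those few UMIs in cluster 10. *Ciita* stood at 52.3, 47.2 and 71.8 CPM against 276, 209 and 177 CPM (log2 fold change -1.82, SE 0.22, edgeR adjusted p = 3.07e-05, 3 of 3 libraries). For both genes the clusters did not overlap. *H2-DMb1*, *H2-DMa* and *H2-DMb2* were lower in cluster 8 in 3 of 3 libraries, with log2 fold changes of -1.37, -1.20 and -1.17 and edgeR adjusted p = 0.000385, 0.000363 and 0.00131. The values of the 5 uncalled genes lay between -0.27 for *H2-Oa* and 0.29 for *H2-Eb1*. With the library as a block *H2-Ab1* (edgeR adjusted p = 0.0486, log2 fold change -0.29) and *H2-Eb1* (0.0377, 0.28) were also called, where that fit called 789 genes higher and 650 lower, in ranges of 0.0212 to 0.859 and 0.0377 to 0.512, and *H2-Ab1* also without TMM scaling (0.0212, -0.45) and in thinned cells (0.0389, -0.44). *Cd74*, at 0.02, and *H2-Aa*, at 0.14, turned to -0.16 and -0.03 without TMM scaling. The median over the 10 genes was -0.27, against 0.01 for all genes tested, and without TMM scaling the latter moved to -0.16 and the calls from 796 higher and 683 lower to 624 and 972. DESeq2 gave 673 and 418. Without the WT library 950 genes were called, without the *sGsn-/-* library 939 and in thinned cells 738, in place of 1479. Of 9 tested genes of the pathway *Lgmn* (log2 fold change 2.87) and *Cd83* (0.60) were higher in cluster 8 and *March1* (-1.98) lower.

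Early cDC1s (clusters 4 and 1) were compared with resting cDC1s (clusters 5, 2, 3, 6 and 0), 2 stages of maturation as the study groups its clusters. *Ciita* was at 144, 141 and 159.8 CPM in early and 188, 186 and 188 CPM in resting cDC1s, lower in early cells in 3 of 3 libraries with no overlap (log2 fold change -0.33, SE 0.07, edgeR adjusted p = 0.00227). *H2-Eb2* was at 2.04, 3.11 and 3.32 against 5.21, 4.61 and 5.60 CPM (log2 fold change -0.89, SE 0.23, edgeR adjusted p = 0.00795, 3 of 3 libraries), and *H2-Eb1* at 7303, 7644 and 8043 against 8863, 8872 and 9056 CPM (log2 fold change -0.21, SE 0.07, edgeR adjusted p = 0.0279, 3 of 3 libraries). The groups did not overlap for either. The clusters within each group were not alike, however. *Ciita* was at 141 ± 11.1 and 153 ± 9.73 CPM in early clusters 4 and 1, at 140.0 ± 5.38 and 148 ± 8.79 CPM in resting clusters 0 and 5, and at 216 ± 9.20, 219 ± 10.5 and 272 ± 20.4 CPM in resting clusters 2, 3 and 6, which carried the resting level. *H2-Eb1* was at 5891 ± 486 CPM in cluster 4 and 8673 ± 291 CPM in cluster 1, the latter within the range of the resting clusters, 6397 ± 238 CPM in cluster 6 to 9803 ± 152 CPM in cluster 2. For *H2-Eb2* early clusters 4 and 1 were at 2.71 ± 0.339 and 2.88 ± 0.909 CPM, and resting clusters 0 and 5 at 2.26 ± 0.502 and 3.41 ± 1.47 CPM. Resting clusters 3, 2 and 6, at 5.65 ± 0.668, 6.65 ± 1.11 and 12.3 ± 0.441 CPM, carried its resting level. *Ciita*, *H2-Eb2* and *H2-Eb1* were the 3 genes of the 10 that were called, all lower in early cells, where 19.4% of 10696 genes were called lower and 19.1% higher. *H2-Eb2* was no longer called without the WT library (edgeR adjusted p = 0.118, log2 fold change -0.67, range 0.000708 to 0.118). *H2-Eb1* was no longer called without the WT (0.191) or the *sGsn-/-* library (0.175), with log2 fold changes of -0.19 and -0.22 and edgeR adjusted p from 8.38e-09 to 0.191 over its alternatives. With the library as a block, which called 2429 genes higher and 2392 lower of the 10696, 8 of the 10 genes were called, adding *H2-Aa* (edgeR adjusted p = 5.84e-05), *H2-Ab1* (3.22e-06), *Cd74* (5.30e-08) and *H2-DMa* (0.0207) as lower and *H2-DMb1* (0.000317) as higher, with log2 fold changes of -0.10, -0.13, -0.14, -0.08 and 0.14. Without the WT library 1 of the 10 genes was called, *Ciita*, and 2579 genes in all in place of 4114. The uncalled genes without the block ran from -0.14 for *Cd74* to 0.15 for *H2-DMb2*.

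The median over the 10 genes was -0.11, against -0.01 for all genes tested, and they took 4.54%, 4.67% and 4.71% of UMIs in early and 5.13%, 5.11% and 5.11% in resting cDC1s. Among 14 tested genes of the pathway 6 were higher and 2 lower in early cells. *Lgmn* (log2 fold change 2.28), *Ifi30* (1.03), *Ctss* (0.57), which encodes the cathepsin that trims the invariant chain, and *Ctsl* (0.49), another cathepsin, were higher, with *Rfxap* and *Nfya*, and *H2-Ob* (-0.71) and *March1* (-0.56) were lower. Other markers moved with early cells: the 6 cDC2 genes, all with UMIs, summed to 161, 131 and 157 CPM against 28.1, 25.7 and 25.2 in resting cells, *Cd209a* the most abundant in early cells. The 5 NK genes, all with UMIs, summed to 161, 213 and 184 against 44.0, 79.3 and 46.5 CPM, *Klrd1* on top. The 8 monocyte or macrophage genes, all with UMIs and *Apoe* the most abundant, summed to 100.2, 62.6 and 102 against 59.0, 42.9 and 48.1 CPM. The part of these markers in the class II values was not tested.

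**Figure D2:**
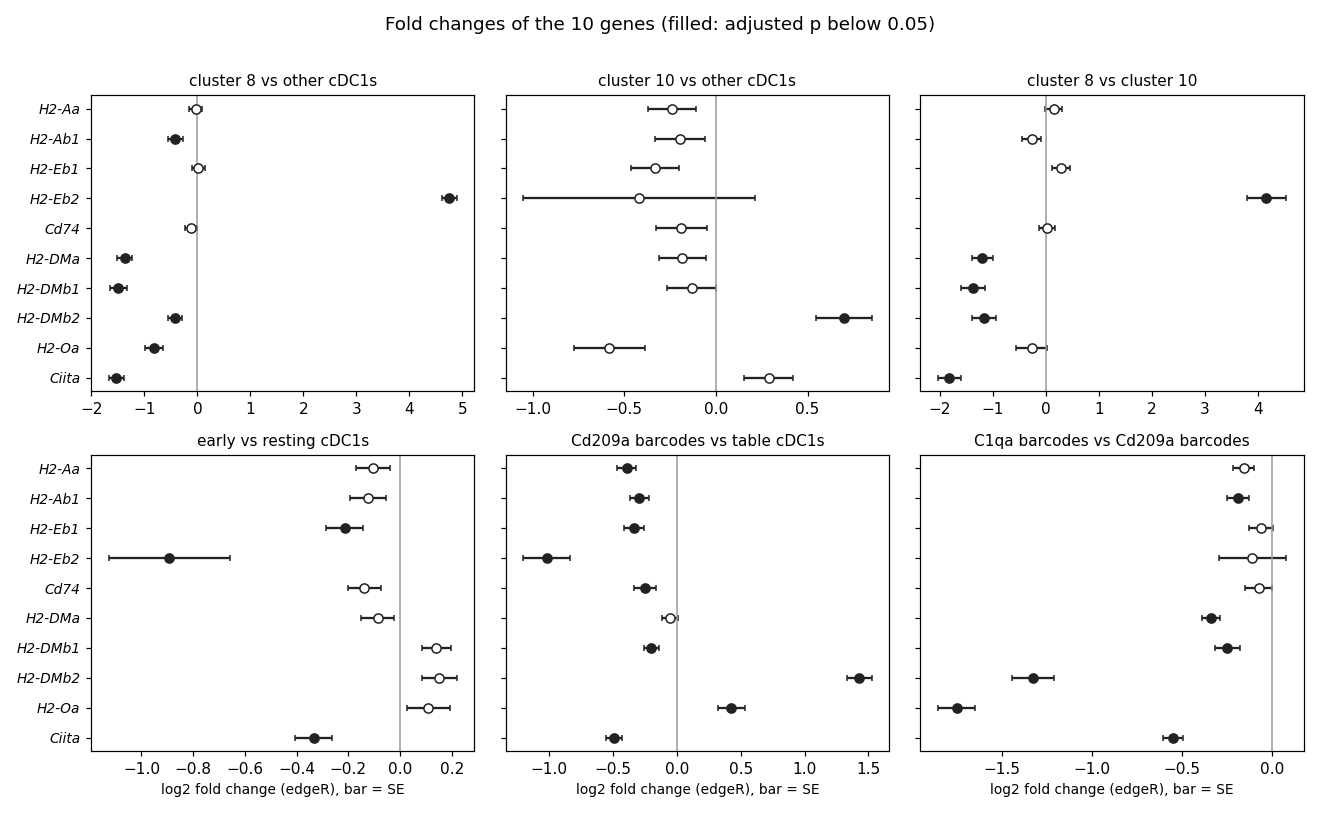
Log2 fold changes (horizontal axes, each panel on its own scale) of the 10 genes (vertical axis) in the 6 comparisons between groups of cells, with bars for the SE of the fit to 3 libraries a group and filled points for adjusted p under 0.05. *H2-Eb2* in cluster 8 (4.75) is the largest rise in any of the 6, and *H2-DMb2* is higher in *Cd209a* barcodes than in cDC1s (1.43) and lower in *C1qa* than in *Cd209a* barcodes (-1.33).

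Outside the table, 6823 barcodes held *Cd209a*, a cDC2 gene, without *C1qa*, and 4147 held *C1qa*, a macrophage gene, without *Cd209a*. They are named by those genes and not as cell types. In *Cd209a* barcodes the 6 cDC2 genes summed to 1661, 1578 and 1604 CPM, against 60.9, 59.2 and 58.8 CPM in table cDC1s, and the 5 NK genes to 752, 950.4 and 817 CPM with *Klrd1* the most abundant, against 71.3, 119.7 and 81.4 CPM. The 8 monocyte or macrophage genes, *C1qa* at 0 by construction and *Csf1r* the most abundant, summed to 333, 261 and 342 against 89.7, 53.1 and 68.8 CPM. In *C1qa* barcodes the monocyte or macrophage genes summed to 8883, 7949.6 and 7777 CPM, a sum that includes *C1qa*, which chose these barcodes. There the cDC2 genes, *Cd209a* at 0 by construction, summed to 771, 773 and 749 CPM, and the NK genes to 391, 656 and 508 CPM. The part of these other cells in the values below was not tested. The 10 genes took 4.93%, 4.36% and 4.36% of UMIs in *Cd209a* barcodes and 4.44%, 4.17% and 4.09% in *C1qa* barcodes, and in both the WT library was highest.

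*Cd209a* barcodes were richer than cDC1s in 2 genes that tune peptide loading. *H2-DMb2* was at 201, 183 and 147 CPM against 60.9, 59.3 and 54.8 CPM in cDC1s, higher in 3 of 3 libraries without overlap (log2 fold change 1.43, SE 0.10, edgeR adjusted p = 1.11e-06). It made up 16.8%, 16.8% and 14.5% of UMIs of the H2-DM β pair. *H2-Oa* was at 137, 115 and 102 against 73.8, 77.7 and 82.8 CPM (log2 fold change 0.43, SE 0.10, edgeR adjusted p = 0.00551, 3 of 3 libraries), again without overlap. *Ciita* was at 146, 134 and 131 against 174, 165 and 176 CPM and was lower in each library (log2 fold change -0.50, SE 0.06, edgeR adjusted p = 0.000105). *H2-Eb2* was at 4.07, 6.34 and 4.10 against 7.90, 10.7 and 7.22 CPM (log2 fold change -1.02, SE 0.18, edgeR adjusted p = 0.00094, 3 of 3 libraries). Of its 664 UMIs in the cDC1s 318 were in cluster 8, and cDC1s outside cluster 8, at 4.49, 4.35 and 5.11 CPM, overlapped with *Cd209a* barcodes. *H2-Aa* (log2 fold change -0.39) and *H2-Eb1* (-0.34) were also lower in 3 of 3 libraries (edgeR adjusted p = 0.00118 and 0.00459).

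In total 2 of the 10 genes were higher and 7 lower in *Cd209a* barcodes, where 30.8% of 12522 genes were called higher and 28.5% lower. The median over the 10 was -0.27, against 0.00 for all genes tested. Without TMM scaling that median moved to 0.17 and the calls from 3853 higher and 3566 lower to 5242 and 2173. Against that shift *H2-DMa*, not called at -0.06, turned to 0.12, and by CPM it was higher in 3 of 3 libraries. The calls of *H2-Ab1* (log2 fold change -0.29, edgeR adjusted p = 0.00813, lower in 3 of 3 libraries), *Cd74* (-0.25, 0.0282, 2 of 3) and *H2-DMb1* (-0.20, 0.0185, 2 of 3) were lost without TMM scaling (0.0752, 0.297 and 0.693, with log2 fold changes of -0.12, -0.08 and -0.03), and the groups overlapped for the last 2. They were also lost without the *sGsn-/-* library (edgeR adjusted p = 0.0537, 0.13 and 0.114, log2 fold changes -0.27, -0.21 and -0.17) and without the *sGsn-/- Clec9a-/-* library (0.0563, 0.126 and 0.0918, with -0.25, -0.22 and -0.18). *Cd74* was not called either without the top 5% of barcodes (edgeR adjusted p = 0.0535, -0.22) or with at least 3 UMIs of the marker gene (0.101, -0.17), nor *H2-DMb1* with that minimum (0.189, -0.10) or in thinned cells (0.0986, -0.15). Over the 10 alternatives the edgeR adjusted p ran from 3.47e-05 to 0.0752 for *H2-Ab1*, 0.00103 to 0.297 for *Cd74* and 0.00196 to 0.693 for *H2-DMb1*. Of 15 tested genes of the pathway 6 were higher, led by *Ctsl* (log2 fold change 2.15), *March8* (1.91), *Lgmn* (1.34) and *Ctss* (1.23), and 5 were lower, led by *H2-Ob* (-1.46), *March1* (-1.10) and *Cd83* (-1.04). Of the 2 chains of H2-O, *H2-Oa* was higher and *H2-Ob* lower.

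*C1qa* barcodes had less of the same genes. *H2-Oa* was at 38.0, 35.6 and 32.5 CPM against 137, 115 and 102 CPM in *Cd209a* barcodes (log2 fold change -1.75, SE 0.11, edgeR adjusted p = 8.00e-06, 3 of 3 libraries), and *H2-DMb2* at 76.6, 76.1 and 60.8 against 201, 183 and 147 CPM (log2 fold change -1.33, SE 0.12, edgeR adjusted p = 5.45e-05, 3 of 3 libraries). Neither gene overlapped between the groups. *Ciita* was at 94.5, 94.1 and 95.7 against 146, 134 and 131 CPM (log2 fold change -0.55, SE 0.06, edgeR adjusted p = 0.000122, 3 of 3 libraries) and *H2-DMa* had a log2 fold change of -0.34 (edgeR adjusted p = 0.00112, 3 of 3 libraries). *H2-DMb1* (log2 fold change -0.25, edgeR adjusted p = 0.0227, 3 of 3 libraries) lost its call without the *sGsn-/-* (0.0741, log2 fold change -0.28) or the *sGsn-/- Clec9a-/-* library (0.109, -0.23), in a range of 1.66e-05 to 0.109. *H2-Ab1* (log2 fold change -0.19, edgeR adjusted p = 0.0415, 3 of 3 libraries) lost it without any 1 of the libraries (0.14 without WT, 0.0625 without *sGsn-/-*, 0.193 without *sGsn-/- Clec9a-/-*, range 5.55e-05 to 0.331), with log2 fold changes of -0.15, -0.22 and -0.18, and also in thinned cells (0.331, -0.10) and without the top 5% of barcodes (0.0567, -0.19). So 6 of the 10 genes were called, all lower, where 16.7% of 12712 genes were called lower and 16.7% higher, and the median over the 10 was -0.22 against 0.01 for all genes tested. The 4 uncalled genes lay between -0.16 for *H2-Aa* and -0.06 for *H2-Eb1*, and the block by library, which called 3084 of all genes higher and 3067 lower, called *H2-Aa* (edgeR adjusted p = 0.000488, -0.15) and *Cd74* (0.0242, -0.07) lower as well, in ranges of 0.000488 to 0.362 and 0.0242 to 0.987, and *H2-Aa* also without a filter (0.0435, -0.18). Of 15 tested genes of the pathway 4 were higher in *C1qa* barcodes, *Lgmn* (log2 fold change 1.89), *March8* (1.85), *Ctsl* (1.47) and *Ctss* (0.46), and 8 lower. Both comparisons share the *Cd209a* barcodes.

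Class II UMIs also occurred in barcodes with *Ncr1*, an NK cell gene. The sort took cells with surface MHC class II protein and left out those with lineage antigens, an NK cell antigen among them. Whether these barcodes make class II RNA themselves was not tested. In the 2980 *Ncr1* barcodes, chosen without UMIs of *Cd209a* and *C1qa*, the 10 genes took 0.588%, 0.657% and 0.819% of UMIs. *H2-Aa*, *H2-Ab1*, *H2-Eb1*, *Cd74*, *H2-DMa*, *H2-DMb1*, *H2-Oa* and *Ciita* were there at 13.8% to 16.2% of their level in *Cd209a* barcodes (mean of 3 libraries), *H2-DMb2* at 8.82% and *H2-Eb2* at 21.7%. Against *C1qa* barcodes *H2-Oa* was at 45.5%, *H2-DMb2* at 21.7% and the other 8 at 15.6% to 23.3%, and against table cDC1s *H2-DMb2* was at 26.3%, *H2-Oa* at 20.6% and the other 8 at 12.1% to 15.7%. These shares of means do not describe the typical barcode. Thinned to 3930 UMIs, *Cd74* had a median of 1 and a 90th percentile of 23 UMIs in *Ncr1* barcodes, against a median of 76 in *Cd209a* barcodes, and *H2-Aa* a median of 0 and a 90th percentile of 9, against a median of 29. At the same depth 2.82% (2.20 to 3.56) of *Ncr1* barcodes had *H2-DMb2*, against 37.0% (35.8 to 38.2) of *Cd209a* and 19.3% (18.1 to 20.6) of *C1qa* barcodes. For *H2-Oa* the thinned shares were 4.09% (3.34 to 4.95), 30.1% (29.0 to 31.2) and 11.1% (10.1 to 12.2). Median depths were 8173, 12345 and 14992 UMIs, and before thinning the shares with *H2-DMb2* were 7.15%, 56.4% and 43.4% and those with *H2-Oa* 9.83%, 50.3% and 27.9%. Both genes were found more often in *Cd209a* and in *C1qa* barcodes than in *Ncr1* barcodes, beyond counting error.

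**Figure D3:**
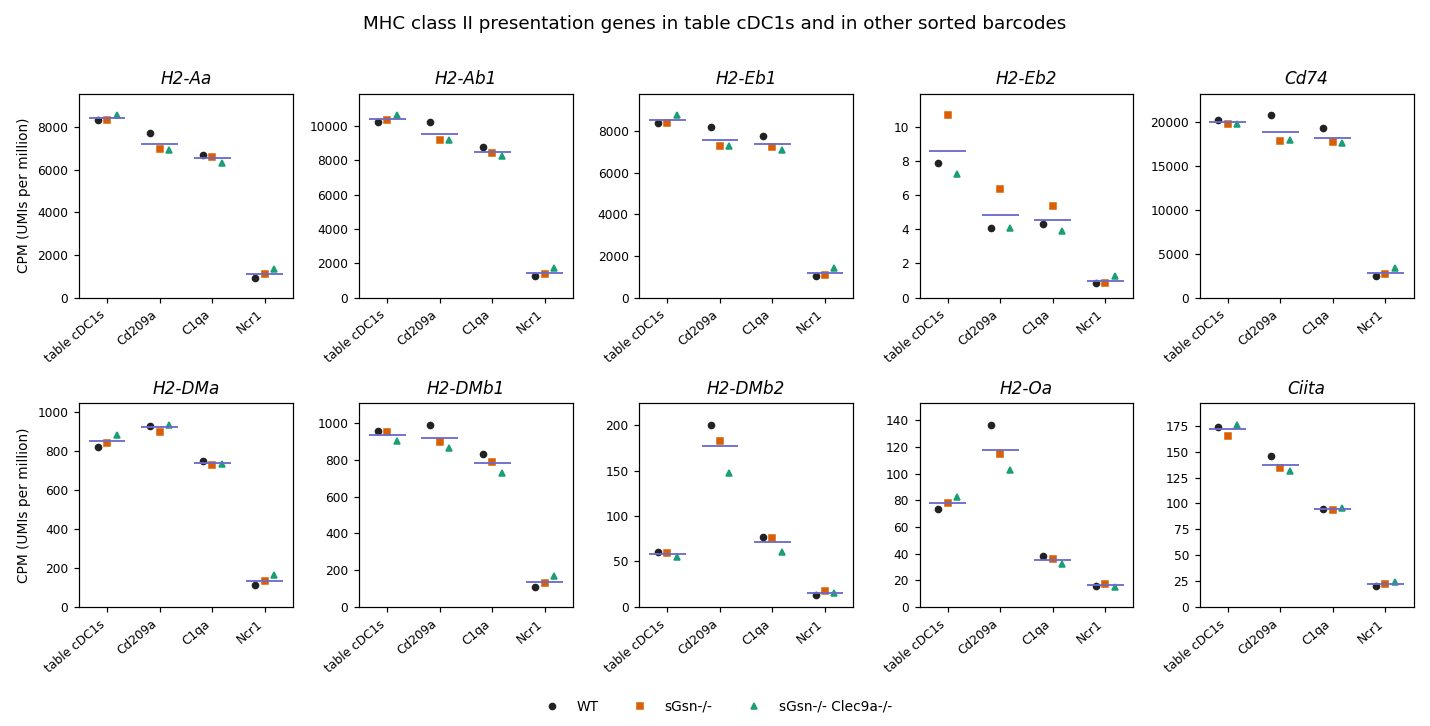
CPM of the 10 genes (vertical axes, from 0) in table cDC1s and in *Cd209a*, *C1qa* and *Ncr1* barcodes outside the table, with a point for each of the 3 libraries and a line for their mean. *H2-DMb2* and *H2-Oa* are highest in *Cd209a* barcodes, and all 10 genes are lowest in *Ncr1* barcodes.

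Between genotypes the class II genes of all table cDC1s were close. With 1 library a genotype there is no replicate check and no test, and intervals are exact 95% Poisson intervals for counting error alone. The 10 genes summed to 49394, 49022 and 49860.1 CPM, a log2 ratio of -0.01 (-0.01 to -0.01) from WT to *sGsn-/-* and of 0.02 (0.02 to 0.03) from *sGsn-/-* to *sGsn-/- Clec9a-/-*. In each comparison 1 of the 10 was past a log2 ratio of 0.32 either way, where 4.25% of 6634 genes and 6.86% of 6591 genes at 10 CPM or more in either library were. That gene was *H2-Eb2*, at 7.90, 10.7 and 7.22 CPM, with log2 ratios of 0.43 (0.18 to 0.69) and -0.56 (-0.86 to -0.27). *H2-Eb2* reached 10 CPM only in the *sGsn-/-* library, where it was highest, so it entered both counts through the values compared. Outside cluster 8 it was at 4.49, 4.35 and 5.11 CPM, and with the clusters weighted equally the ratios were 0.11 and 0.26, the second with the opposite sign. That weighting, here and below, counted shallow cluster 11 (60 cells, median 2348 UMIs) as much as any other cluster. In cluster 11 *H2-Eb2* had UMIs in 3 cells, and the 10 genes took 5.96%, 6.68% and 5.33% of UMIs. The part of cluster 11 in the weighted ratios, and what lies behind the differences between genotypes, was not tested. The median size of the log2 ratio was 0.04 and 0.07 over the 10 genes and 0.09 and 0.10 over all genes compared. *Ciita* had log2 ratios of -0.08 (-0.14 to -0.02) and 0.09 (0.03 to 0.16), *H2-DMb1* of -0.00 (-0.03 to 0.02) and -0.08 (-0.10 to -0.05), and *H2-Aa* of -0.00 (-0.01 to 0.01) and 0.03 (0.03 to 0.04). With the clusters weighted equally they were -0.05 and -0.09 for *Ciita*, the second with the opposite sign, 0.05 and -0.09 for *H2-DMb1*, the first with the opposite sign, and 0.06 and -0.00 for *H2-Aa*, both with the opposite sign, and for the 10 genes summed they were 0.03 and -0.01, also both. Of the pathway, *Lgmn* was at 28.8, 41.6 and 25.9 CPM, with log2 ratios of 0.53 (0.40 to 0.66) and -0.68 (-0.84 to -0.53), and of 0.05 and -0.29 with the clusters weighted equally.

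The genes whose levels ran most like those of 4 class II genes were sought among 4687 other genes, by Pearson correlation of log2(CPM + 1) over the means of clusters 0 to 10 (n = 11 clusters, which share 3 libraries and differ in depth). For *H2-Eb2* these were *Pik3r1* (0.97), *Arl5a* (0.96) and *Polr3c* (0.95), which were highest in cluster 8 too. For *Ciita* they were *Slc25a45* (0.95), *Sdad1* (0.95) and *Atp8a1* (0.95), and for *H2-DMb2* *Hip1* (0.96), *Kmo* (0.95) and *Pitpnb* (0.92), all lowest in cluster 8. For *Cd74* they were *Stard3nl* (0.93), *Pcbd2* (0.89) and *Cox7c* (0.88). Among the 10 genes themselves, *H2-DMa* and *H2-DMb1* had a correlation of 0.97, *H2-Ab1* and *Cd74* of 0.94, and *H2-Eb2* and *H2-DMb1* of -0.97, the lowest of the 45 pairs. Cluster 8 stood apart from the nearest cluster for *H2-Eb2* (109 against 12.3 CPM) and for *H2-DMb1* (312 against 731 CPM). How far cluster 8 alone sets any of these correlations was not tested.

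Promoter sequences from RefSeq (GRCm38.p6, 250 bases before to 50 after the gene start) covered 7 of the 10 genes and not *H2-Ab1*, *Cd74* or *Ciita*. They were searched on both strands for TGATTGG, the Y box bound by NF-Y, and AACNGATG, letters of the X box, the site of RFX and CREB. TGATTGG occurred in 7.82% of 32851 promoters, AACNGATG in 2.32% and both in 0.186%. On the strand of the gene, TGATTGG was in the promoters of *H2-Aa*, *H2-DMb1*, *H2-DMb2*, *H2-Eb1*, *H2-Eb2* and *H2-Oa*, and AACNGATG was also in those of *H2-DMb1*, *H2-DMb2*, *H2-Eb1* and *H2-Eb2*, starting 28 or 29 bases before the start of TGATTGG. The letters were in neither window of *H2-DMa*. *H2-Eb1* and *H2-Eb2* are shown because they are similar genes that parted in cluster 8, and *H2-DMb2* because it was the gene higher in cluster 10 and in *Cd209a* barcodes. All 3 stretches of 66 bases are on the plus strand, with both motifs in capitals, and none overlaps an annotated exon. That of *H2-DMb2* lies inside the annotated *H2-DMb2* gene, that of *H2-Eb1* in antisense *Gm20513*, and that of *H2-Eb2* in no annotated gene. A match is a description of letters and shows no binding.
H2-Eb1, chr17:34305761-34305826: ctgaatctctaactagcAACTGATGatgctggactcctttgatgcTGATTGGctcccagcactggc
H2-Eb2, chr17:34325528-34325593: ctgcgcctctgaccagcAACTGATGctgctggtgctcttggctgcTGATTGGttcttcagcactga
H2-DMb2, chr17:34145112-34145177: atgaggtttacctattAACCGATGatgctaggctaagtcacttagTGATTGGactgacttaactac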

How the data were processed

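Each of the 3 libraries was sequenced from 1 pool of sorted tumour cells. The deposited counts were raw UMIs per gene and barcode, made by the authors with Cell Ranger (6.0.1 per the file headers) on mm10 and not normalised. The deposited cDC1 table, made by the authors with Seurat per the labels, gave each cell's library and cluster, and its counts per cell were UMIs.

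Barcodes with under 200 genes or a mitochondrial share above 17.5% (mean plus 2 SD) were left out of the groups outside the table, which were set by at least 1 UMI of *Cd209a* and none of *C1qa*, of *C1qa* and none of *Cd209a*, or of *Ncr1* and none of the other 2. UMIs were summed per library and group in Python 3.11.15 and tested with edgeR 4.0.16 (TMM scaling, filterByExpr, 3 libraries a group) in R 4.3.3. Libraries supplied both sums of a comparison from the same pool of mice. The within-library correlations over genes were 0.0125 to 0.421, and -0.0229 for clusters 8 and 10 in *sGsn-/-*, and a block by library was an alternative. Others were DESeq2 1.42.0, no TMM scaling, no filter, each library left out, thinned cells, no top 5% of barcodes, no cluster 11 and at least 3 UMIs of the marker gene. Genotypes were compared without a test. The 10 genes and all lists were chosen with earlier results of these data known. The other pathway genes were *H2-Ob*, *H2-Ea*, *Rfx5*, *Rfxap*, *Rfxank*, *Nfya*, *Nfyb*, *Nfyc*, *Creb1*, *Ctss*, *Ctsl*, *Lgmn*, *Ifi30*, *March1*, *March8* and *Cd83*, and those with the largest changes were named. Similar genes needed a mean of 20 CPM. The fits were tested on simulated data.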

Additional observations from a re-analysis of the deposited data

Results flagged for a closer look

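The 10 genes took 4.75% of UMIs in the 1692 barcodes outside the table with both *Cd209a* and *C1qa*, which no comparison used. By library the share was 4.91%, 4.61% and 4.64%, above the 0.588%, 0.657% and 0.819% of *Ncr1* barcodes in each library. They took 4.07% of UMIs in the 7496 barcodes outside the table with none of *Cd209a*, *C1qa* and *Ncr1*, also used in no comparison, and by library 4.39%, 3.85% and 3.82%. Both groups came to notice because these shares in data left outside the comparisons were above those of *Ncr1* barcodes, and what the barcodes are was not tested.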

How the results depend on the processing

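For single genes among the 10, 509 values under the alternatives kept direction and side of the threshold, 20 passed it newly, 31 no longer passed it and 18 changed sign, all 18 among uncalled values. Of counts and sums 100 stayed close and 24 moved. The causes were not tested unless the alternative itself left fewer libraries or UMIs.

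Uncalled log2 fold changes that changed sign were these. In cluster 8 *H2-Eb1* was -0.15 without TMM scaling, -0.10 without a filter, -0.16 in thinned cells, -0.0041 without the top 5% of barcodes and -0.12 to 0.0545 with 1 library left out, over which *H2-Aa* ran from -0.18 to 0.0030. In cluster 10 *H2-Eb2* was 0.22 in thinned cells and -0.91 to 0.0934 with 1 library left out, and *H2-DMb1* -0.30 to 0.0073. Between clusters 8 and 10 *Cd74* was -0.16 without TMM scaling, -0.0772 in thinned cells, -0.0018 without the top 5% of barcodes and -0.0419 to 0.17 with 1 library left out, and *H2-Aa* -0.0327 without TMM scaling. In *Cd209a* barcodes *H2-DMa* was 0.12 without TMM scaling and 0.0234 with at least 3 UMIs of the marker gene. In *C1qa* barcodes *H2-Eb1* was 0.0303 in thinned cells.

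Calls over all genes were 3037 in thinned cells and 2989 to 4629 with 1 library left out for cluster 8, 496 and 318 to 357 for cluster 10, and 738 and 939 to 1697 for clusters 8 and 10. For early cells they were 2579 to 3384 with 1 library left out. Of the 10 genes, cluster 10 had 2 calls without a filter, 0 in thinned cells and 0 with 1 library left out, all by edgeR, where 2 genes in thinned cells and 2 to 4 with 1 library left out had an unadjusted p under 0.05, and 1 by DESeq2 with all libraries. Over all genes the fit without a filter called 459 higher and 594 lower of 18142, and DESeq2 801 and 322 of 13221. Early cells had 5 calls without TMM scaling, 5 without a filter, 5 with DESeq2, 8 with the block and 1 to 3 with 1 library left out. Over all genes these fits called 1875 higher and 1995 lower of 10696 without TMM scaling and 1960 and 2450 of 17629 without a filter. DESeq2 called 1557 and 1460 of 12159, and the block 2429 and 2392 of 10696. Outside the comparisons where it is given, the block by library changed no call of the 10 genes. Between genotypes the log2 ratio of the summed genes was 0.0314 and -0.0060 with clusters weighted equally, and -0.0162 and 0.10 with TMM-scaled CPM.

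There was 1 library a genotype from pooled mice, and the smallest group compared held 21 cells, cluster 10 in WT. A gene that was not called is not shown to be equal. Leaving out a library leaves 2 a group.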
